A study of Mus musculus with 42 samples.

Results

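Peaks of SOX2, β-catenin and LEF1 were described at the homeobox genes Meis1, Meis2, Meis3, Pbx2 and Pbx3, 5 of the 21911 protein-coding genes of the mouse annotation. The genes were picked by name, with earlier peak results of the same libraries known, among them the β-catenin peaks upstream of Meis3 in wild-type (WT) and Cdx mutant cells. Every ChIP-seq peak that overlapped a gene body extended by 10 kb on each side was taken, from the full list of each library and from its 20000 best peaks. Peaks of the 20000 best lists were merged across libraries of 1 factor, which gave 381486 regions in all. Of these, 295 lay in the windows of the 5 genes, 120 in SOX2 lists, 97 in β-catenin lists and 78 in LEF1 lists.

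The cells were mouse embryonic stem cells of the HM1 background, differentiated towards epiblast-like cells and collected at 72 h. All groups were cultured with bFGF and LGK974, a drug that blocks secretion of WNT ligands, and were fixed with both DSG and formaldehyde. Cells called CHIR also received CHIR99021, which inhibits GSK3 and so turns on WNT signalling inside the cell, during the last day. The WT cells were the HM1 TetON line, CdxKO cells carried the Cdx1/2/4-/- genotype and T/BraKO cells the T/Bra-/- genotype. SOX2 was precipitated from WT, CdxKO and T/BraKO cells with CHIR and from WT cells without it (noCHIR), and β-catenin and LEF1 from the 3 genotypes with CHIR. Each of these 10 groups had 3 libraries, 30 of the 42 samples of the series, and the 12 input samples were not analysed here. Genotype and cell line cannot be told apart, and a peak list cannot show whether the deleted genes were absent.

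MEIS and PBX proteins are homeodomain transcription factors of the TALE class, named for a loop of extra amino acids in the homeodomain. They bind DNA as partners of HOX proteins and of each other, and are best known from hindbrain, limb and blood cell development. In the posterior epiblast, WNT signalling stabilises β-catenin, which has no DNA-binding domain of its own and is held on DNA by TCF/LEF proteins such as LEF1. CDX proteins are homeodomain factors that act above the posterior Hox genes, T (Brachyury) is a T-box factor of mesoderm, and SOX2 is an HMG-box factor of pluripotent and neural cells.

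Meis3 led to the choice of these genes: a short stretch before it was among the best β-catenin regions of WT and T/BraKO cells and was outside the 20000 best peaks in CdxKO cells. It spans chr7:16173993-16175029 (mm10, 1037 bp). Its β-catenin summit, the position of the highest signal, lies 856 bp upstream of the Meis3 start, which is between genes in GENCODE and inside an exon of Meis3 in RefSeq that runs from 16174012 to 16175184. A piece of 30 bases at the summit (GRCm38, plus strand) is shown because it holds a pair of matches to the letters of the CDX motif, in capitals, and the summit itself.
Meis3 upstream region, chr7:16174225-16174254: tgcgaggcctgTTTATGGgagTCATAAAat

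The letters searched for CDX on both strands were CCATAAA, its close form CAATAAA, and the forms that open with T instead, TCATAAA beside TAATAAA. The matches began 2 and 12 bp downstream of the β-catenin summit, the former on the minus strand. Among 15600 β-catenin regions found in at least 3 libraries, 2.74% held a CDX match within 20 bp of the summit. Only 11 of them (0.0705%), the Meis3 region included, held at least 2 matches there that did not overlap, a window that was set after the Meis3 matches had been seen. The region also held 3 matches to the MEIS letters TGACAG, at 166 and 62 bp upstream and 411 bp downstream of the summit, and none to the TCF/LEF letters CTTTGAA or CTTTGAT, which 40.9% of the β-catenin regions held within 100 bp of their summit. Matches are a description of letters and not of binding.

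The lists of the 30 libraries, which the labels call biological replicates, held 26940 to 1008922 peaks, and the weakest of the 20000 best peaks had a −log10 q of 3.26 to 14.1, so peaks are compared by rank within a library, where rank 1 has the highest −log10 q. A rank score, log10 of 20000 divided by the rank of the best peak, is 0 where no peak is among the 20000 best. Short lists end at a better rank, so the lack of a peak in a full list is not alike between libraries. Libraries of 1 group shared unequally: 3.84% of SOX2 WT CHIR regions were found in 3 of 3 libraries, against 23.5% for SOX2 WT noCHIR, 14% and 12% for SOX2 in CdxKO and T/BraKO, 11.9% to 18.3% in the β-catenin groups and 0.868% to 1.78% in the LEF1 groups. The SOX2 WT CHIR and LEF1 groups shared the fewest regions, and the part of this in the results that use them was not tested. Axin2, Sp5 and Nkd1, known targets of WNT signalling, had a peak among the 20000 best in all 30 libraries, and Lef1, another, in all SOX2 and β-catenin libraries and 8 of 9 LEF1 libraries. Fewer cells with a factor bound and weaker binding in each cell cannot be told apart in such data.

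β-catenin at the Meis3 upstream region ranked 139, 500 and 344 in the 3 WT libraries, with fold enrichments of 41.6, 39.1 and 50.3 over the local background. In T/BraKO the ranks were 170, 274 and 206 and the fold enrichments 71.7, 47.3 and 59.3, so that the T/BraKO ranks lay inside the WT range. In CdxKO, replicates 1 and 3 had no peak there in their full lists, and replicate 2 had one at rank 29569 with a fold enrichment of 4.27, its summit at −254 bp from the start. The best β-catenin peak anywhere in the Meis3 window of a CdxKO library ranked 45840, 29569 and 22486. The mean rank score of the gene was 1.84 ± 0.286 (SD, n = 3) in WT, 0 in CdxKO and 1.97 ± 0.104 in T/BraKO. These values were among those that led to the choice of the region, so no test was made of them. Peaks nearest to the limit of 20000 in the Meis3 window included rank 22486 outside it and rank 18515, for SOX2 in WT CHIR replicate 2, inside it.

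**Figure D1:**
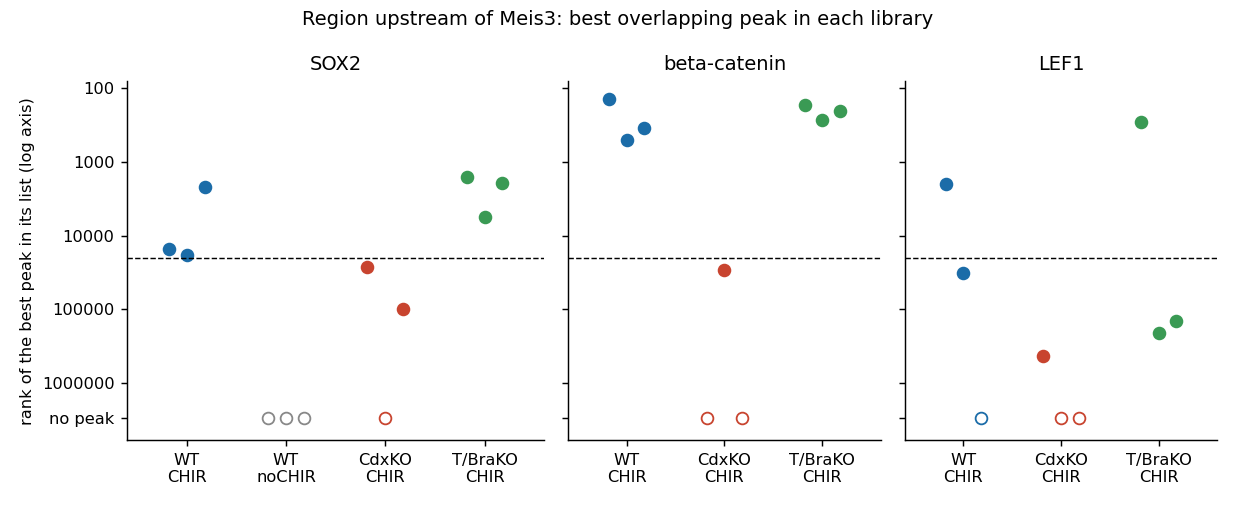
Rank of the best peak at the Meis3 upstream region in each library, by factor and group. The log axis has the best ranks at the top. Points are libraries, open points are libraries with no peak, and the dashed line is rank 20000. β-catenin lies inside that limit in the 3 WT and 3 T/BraKO libraries. In CdxKO 1 library has a β-catenin peak, outside the limit, and the others have none. The 3 SOX2 noCHIR libraries have no peak.

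The coordinates of the region came from β-catenin peaks, and SOX2 was compared there as a separate measure, with SOX2 results of these libraries also known. In WT CHIR the SOX2 ranks were 15372, 18515 and 2158, with fold enrichments of 8.54, 6.91 and 12.2, and without CHIR none of the 3 full lists held a peak in the region. In CdxKO the ranks were 26592 and 98750 in replicates 1 and 3, and replicate 2 had none. The region was thus outside the 20000 best SOX2 peaks in every CdxKO and noCHIR library. T/BraKO libraries ranked 1624, 5618 and 1944, with fold enrichments of 14.4, 9.94 and 13.5. The 3 T/BraKO summits lay at −863, −862 and −864 bp from the start, beside the β-catenin summit at −856 bp. Replicate 1 of WT CHIR had its SOX2 summit at −132 bp and so elsewhere in the region. Over the whole Meis3 window, SOX2 scored 0.175 ± 0.303 in CdxKO, where replicate 2 had a peak among the 20000 best inside the gene.

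T/BraKO had a mean SOX2 rank score of 0.885 ± 0.291 (n = 3), against 0.186 ± 0.385 in the 6 WT and CdxKO libraries, a difference of 0.70 (two-sided exact permutation test over 84 assignments, p = 0.0238, adjusted p = 0.119 over 5 tests of this region). CdxKO was at 0 in all 3 libraries, against 0.628 ± 0.469 in the other 6 (exact permutation p = 0.0595, adjusted p = 0.149). WT CHIR, at 0.372 ± 0.517, lay above noCHIR at 0 in all libraries (exact permutation p = 0.1, the smallest that 3 against 3 allows, adjusted p = 0.167). None of these passed after adjustment. The region was chosen by β-catenin peaks of the same genotypes, with earlier results known. The p-values of SOX2 and LEF1 at this region, also under other processing, are therefore descriptive only. Leaving out 1 of the 9 CHIR libraries took the T/BraKO difference past 0.05 for 7 of them (WT replicates 1 and 2, each CdxKO replicate and T/BraKO replicates 1 and 3), with exact permutation p up to 0.107. The CHIR comparison rests on WT CHIR replicate 3, without which the difference was 0.07. Peak ties also touch the CHIR comparison: the peak of WT CHIR replicate 2 shared its −log10 q with peaks ranked 15811 to 23007, and counted at its last rank it falls outside the 20000 best.

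LEF1 at the region was among the 20000 best peaks in 1 WT and 1 T/BraKO library. WT ranks were 1999 and 31727, with no peak in replicate 3, and CdxKO replicate 1 alone of its group had a peak, at rank 435792. T/BraKO ranks were 288, 207609 and 142264, with fold enrichments of 15.8, 4.90 and 4.75. For CdxKO against the others the mean rank score differed by −0.47 (exact permutation p = 0.5, adjusted p = 0.625), and for T/BraKO by 0.45 (exact permutation p = 0.75, adjusted p = 0.75). The latter rests on T/BraKO replicate 1, and without it the difference was −0.17. The 2 LEF1 peaks of high rank had their summits at −846 and −859 bp from the start, next to the β-catenin summit.

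A second β-catenin region, chr7:16172189-16172550, lay 2.70 kb upstream of the Meis3 start, between genes. WT ranks there were 4145, 8104 and 2014 and fold enrichments 9.84, 6.77 and 20.2. No CdxKO library had a peak in this region in its full list, and T/BraKO replicates 1 and 2 ranked 6881 and 5083, with no peak in replicate 3. A match to the PBX-HOX letters TGATNNAT stood within 100 bp of its summit, as in 4 of 23 β-catenin regions of the 5 genes and 7.62% of all β-catenin regions. The region belongs to the contrast that led to the choice of Meis3, so its values are given with no test.

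**Figure D2:**
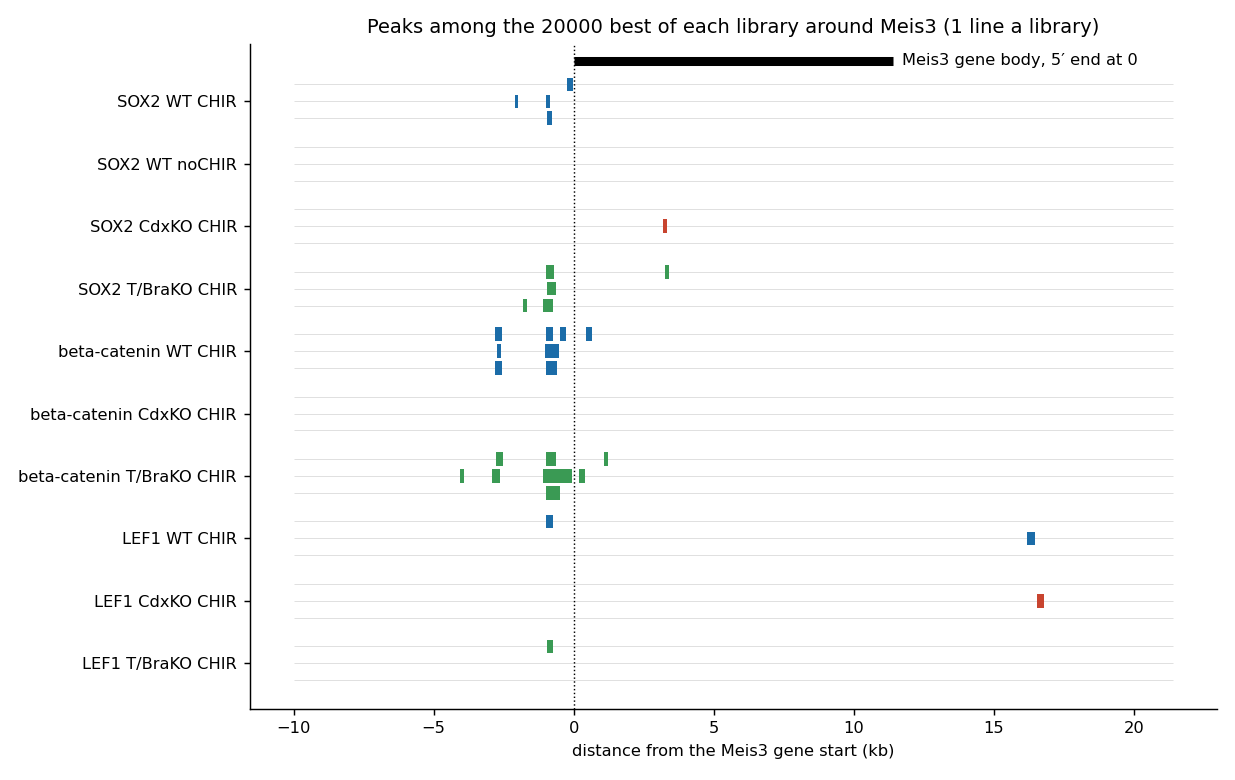
Peaks of the 20000 best around the Meis3 start, with distance from the start in kb on the horizontal axis and 1 line for each library, grouped by factor, genotype and treatment. β-catenin peaks of the WT and T/BraKO libraries stack just upstream of the start, around the summit at 856 bp, where the CdxKO and noCHIR lines are empty.

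Meis2, which codes for a MEIS protein of limb, cranial and heart development, carried its strongest β-catenin and LEF1 signal deep in an intron. The region chr2:115978433-115979223, 87.0 kb downstream of the start, held the best β-catenin peak of the gene window in 7 of 9 libraries and the best LEF1 peak in 5 of 9. The bases within 100 bp of its β-catenin summit are shown because they hold 3 matches to the TCF/LEF letters CTTTGAA or CTTTGAT, in capitals. Counted along the plus strand, they began 15 bp before and 12 and 79 bp after the summit.
Meis2 intron, chr2:115978742-115978942: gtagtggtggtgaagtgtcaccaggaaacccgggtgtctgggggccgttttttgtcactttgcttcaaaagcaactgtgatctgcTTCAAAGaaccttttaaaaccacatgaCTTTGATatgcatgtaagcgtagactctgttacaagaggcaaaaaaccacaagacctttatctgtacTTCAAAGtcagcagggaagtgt

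β-catenin ranked 1481, 571 and 481 there in WT, 814, 966 and 153 in CdxKO and 2450, 5848 and 270 in T/BraKO. Fold enrichments ran from 8.63 to 75.5, and the 3 genotypes overlapped. LEF1 ranks were 1572, 86771 and 271 in WT, 2540, 711 and 238723 in CdxKO and 39350, 46335 and 1222 in T/BraKO, so that LEF1 was strong in some libraries of every genotype and weak in others. The gene's β-catenin rank score was 1.43 ± 0.263 in WT, 1.61 ± 0.442 in CdxKO and 1.47 ± 0.365 in T/BraKO. In T/BraKO replicates 1 and 2 the best peak lay at the Meis2 start instead, at −32 and −7 bp, with fold enrichments of 26.3 and 27.6. The intronic site alone scored 1.11 ± 0.688 in T/BraKO. The CdxKO values of Meis2 thus overlapped those of the other genotypes.

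A weaker β-catenin region in the same gene, chr2:116009091-116009438, 56.6 kb downstream of the start and intronic, was among the 20000 best in the 3 WT libraries alone. Its ranks were 10682, 6375 and 5768 in WT, 22853 and 23056 in CdxKO replicates 1 and 2, and 27479 in T/BraKO replicate 3, with no peak in the full lists of the remaining 3 libraries. The mutant peaks lay just outside the limit of 20000. A CDX match (CCATAAA on the minus strand, in capitals) began 13 bp after its summit along the plus strand.
Meis2 second intronic site, chr2:116009114-116009314: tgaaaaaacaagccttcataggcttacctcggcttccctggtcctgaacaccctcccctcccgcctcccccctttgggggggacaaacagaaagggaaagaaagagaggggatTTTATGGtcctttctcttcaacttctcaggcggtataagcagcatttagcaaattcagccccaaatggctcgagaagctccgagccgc

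SOX2 at Meis2 was spread over several introns. The region with the highest mean score, 186 kb downstream of the start, was among the 20000 best in 1 WT CHIR, 3 noCHIR, 3 CdxKO and 1 T/BraKO library. The gene's SOX2 rank score was 0.684 ± 0.0846 in WT CHIR and 1.04 ± 0.188 in noCHIR, and the groups did not overlap. The best peaks lay 45352, 56515 and 3222 bp downstream of the start in WT CHIR and 186067, 186096 and 5619 bp in noCHIR. The scores thus come from different places in the gene. Across all genes with a peak in at least 3 of the 6 libraries, 13.4% lay wholly higher in noCHIR and 10.2% wholly higher in CHIR, so such a separation is common.

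Meis1 is a gene best known from blood stem cells and leukaemia. It had β-catenin and SOX2 peaks in an intron 11.2 kb downstream of its start (chr11:19007309-19008049 for β-catenin). SOX2 ranked best there without CHIR, where β-catenin was not precipitated, so joint binding in the same cells is not shown. β-catenin ranked 4816, 3133 and 3010 there in WT, 2355, 1263 and 2576 in CdxKO and 3910, 1131 and 1871 in T/BraKO, and it was the best β-catenin peak of the gene in 7 of 9 libraries. CdxKO ranks were all better than WT ranks, and T/BraKO overlapped WT. As a gene, Meis1 scored 0.777 ± 0.0647 in WT and 1.01 ± 0.169 in CdxKO, without overlap, against a share of 5.86% of all genes wholly higher in CdxKO. SOX2 at the same site ranked 1265, 2256 and 1689 without CHIR, with fold enrichments of 23.8, 19.7 and 20.4. With CHIR it ranked 43050, 24721 and 38525, with fold enrichments of 7.43, 6.17 and 5.44. The CdxKO ranks, 22906, 13101 and 14179, lay between these, while T/BraKO had ranks of 78701 and 40502 and no peak in replicate 3. The list of T/BraKO replicate 3 held 26940 peaks in all, so ranks like those of replicates 1 and 2 could not occur in it.

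A SOX2 region further into the gene, 45.4 kb downstream of the start (chr11:18973157-18973692), also ranked high without CHIR, at 3417, 5731 and 1121. With CHIR it had ranks of 41758 and 224646 and no peak in replicate 3. Its sequence is shown for the match to the SOX letters CCTTTGT, minus strand, in capitals, which began 17 bp before the summit along the plus strand.
Meis1 intron, chr11:18973441-18973641: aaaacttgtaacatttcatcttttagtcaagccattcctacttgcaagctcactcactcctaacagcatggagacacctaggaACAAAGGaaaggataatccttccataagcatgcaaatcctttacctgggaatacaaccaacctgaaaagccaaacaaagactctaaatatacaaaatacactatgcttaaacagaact

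Near the Meis1 start, SOX2 and β-catenin regions overlapped, and the groups with a peak among the 20000 best differed between the factors. A SOX2 region (chr11:19018634-19021342) had its summit 54 bp upstream, and the summits of single libraries differed in position within it. This SOX2 region was among the 20000 best in 3, 2, 3 and 3 libraries of WT CHIR, noCHIR, CdxKO and T/BraKO. A β-catenin region with its summit 1.92 kb upstream (chr11:19020464-19021183) lay wholly inside the SOX2 region. It was among the 20000 best in 3 T/BraKO libraries, 1 CdxKO library and no WT library. The full lists of WT replicates 2 and 3 held a β-catenin peak there at ranks 57562 and 175932. A further SOX2 region 3.82 kb upstream ranked 5638, 2703 and 19556 without CHIR and had no peak in any full list of WT CHIR. Over the whole Meis1 window, LEF1 scored 0.446 ± 0.123 in WT and 0.695 ± 0.0743 in T/BraKO, without overlap. Of all genes, 4.89% lay wholly higher in T/BraKO and 5.3% wholly higher in WT. The best LEF1 peaks lay 49962, 48479 and 11309 bp downstream of the start in WT and 105580, 140200 and 144521 bp in T/BraKO. The LEF1 scores thus come from different places in the gene and show no difference at 1 site.

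Pbx3, a PBX gene of the nervous system, held the most regular SOX2 region of the set, chr2:34248996-34250168, in an intron 123 kb downstream of the start. It was among the 20000 best in 12 of 12 SOX2 libraries and was the best SOX2 peak of the gene in 10. The ranks were 8035, 3383 and 19405 in WT CHIR, 1334, 1657 and 4537 in noCHIR, 1430, 1627 and 615 in CdxKO and 1181, 427 and 1036 in T/BraKO. WT CHIR fold enrichments of 10.9, 9.03 and 4.59 compare with 14.3, 13.6 and 24.6 in CdxKO and 16.7, 30.8 and 18.1 in T/BraKO. WT CHIR thus had the poorest ranks without overlap with the mutants, and it overlapped noCHIR. A match to the SOX letters CCATTGT, in capitals, began 23 bp before the summit along the plus strand.
Pbx3 intron, chr2:34249625-34249825: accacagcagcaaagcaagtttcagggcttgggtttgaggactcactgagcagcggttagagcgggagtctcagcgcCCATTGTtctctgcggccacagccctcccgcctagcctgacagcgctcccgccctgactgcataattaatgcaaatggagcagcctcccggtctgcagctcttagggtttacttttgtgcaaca

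Pbx3 as a gene scored 0.575 ± 0.176 for SOX2 in WT CHIR, 0.967 ± 0.284 in noCHIR, 1.25 ± 0.229 in CdxKO and 1.40 ± 0.240 in T/BraKO. Both mutant groups lay wholly above WT CHIR, where 8.37% of all genes did so for CdxKO and 6.67% for T/BraKO. The opposite separation was seen in 5.39% and 5.19% of genes and in none of the members. The 2 comparisons share the WT CHIR libraries, which also had few regions in common with each other.

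β-catenin at Pbx3 was best in another intronic region, 115 kb downstream of the start (chr2:34258131-34258786). WT ranked 2976, 1385 and 1537 with fold enrichments of 11.8, 19.9 and 25.2. CdxKO had no peak, rank 35738 and rank 2724, and T/BraKO had rank 39306, no peak and rank 6403. Every WT library ranked it above every T/BraKO library, and also above the CdxKO libraries except that replicate 3 of CdxKO, at 2724, was above WT replicate 1. The bases within 100 bp of the summit hold 2 CDX matches and 1 TCF/LEF match, in capitals.
Pbx3 second intronic site, chr2:34258375-34258575: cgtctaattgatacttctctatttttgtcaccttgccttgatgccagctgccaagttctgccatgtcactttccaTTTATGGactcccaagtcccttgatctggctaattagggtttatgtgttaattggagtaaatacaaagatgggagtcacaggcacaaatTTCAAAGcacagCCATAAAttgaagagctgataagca

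The gene's β-catenin score was 1.03 ± 0.18 in WT, 0.617 ± 0.223 in CdxKO and 0.760 ± 0.156 in T/BraKO, and the groups overlapped. In CdxKO replicates 1 and 2 and in all T/BraKO libraries, the best β-catenin peak of the gene lay outside the region above. A SOX2 region 9.20 kb downstream of the Pbx3 start ranked 6176, 4585 and 11078 without CHIR. In WT CHIR the same region had a peak in replicate 3 alone, at rank 29395.

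Pbx2, a widely expressed PBX gene, is the shortest of the 5, and its window also overlaps Notch4, Gpsm3, Ager, Rnf5 and Agpat1, so that a peak there cannot be assigned to Pbx2. SOX2 lay at chr17:34586342-34587355, 4.37 kb upstream of the Pbx2 start and in an intron of Notch4, and this was the best SOX2 peak of the window in 11 of 12 libraries. Ranks were 1310, 104795 and 1705 in WT CHIR, 1016, 1531 and 1285 in noCHIR, 1072, 2304 and 884 in CdxKO and 1812, 1508 and 1488 in T/BraKO. WT CHIR replicate 2 stood apart, and the other 11 libraries ranked the region between 884 and 2304. A match to CCATTGT began 13 bp after its summit along the plus strand. β-catenin was weak at Pbx2, with rank scores of at most 0.433 in 9 libraries, and LEF1 was among the 20000 best in 1 WT and 1 CdxKO library.

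**Figure D3:**
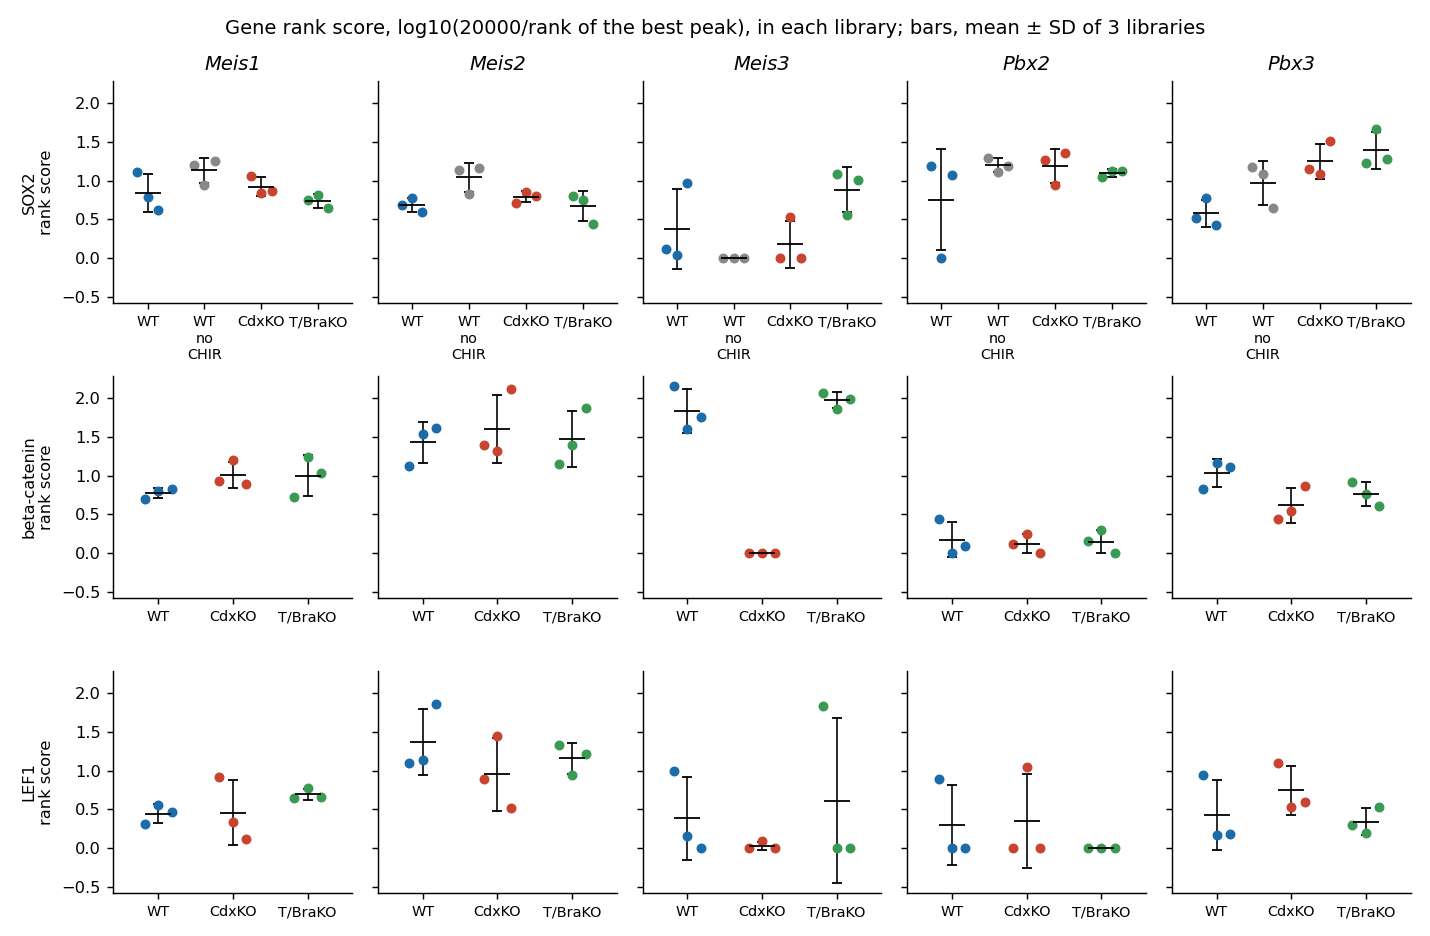
Gene rank score (vertical axis, log10 of 20000 over the rank of the best peak in the gene body extended by 10 kb) of Meis1, Meis2, Meis3, Pbx2 and Pbx3 for each factor and group. Points are libraries and bars are means of 3 libraries. Meis3 has the highest mean β-catenin scores in WT and T/BraKO, and none in CdxKO, and Meis2 is high for β-catenin in all 3 genotypes.

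By the number of peaks per length, the Meis genes held more peaks than a typical window. The median library had 7.54 SOX2 peaks and 4.40 β-catenin peaks per 100 kb at Meis1, 3.82 and 4.49 at Meis2, and 3.18 and 6.37 at Meis3, against medians of 1.00 and 0.963 over the windows of all genes together. Pbx2 had 5.74 and 3.83, and Pbx3, the other long gene, 1.58 and 1.80. LEF1 densities were 1.88 at Meis1, 1.80 at Meis2, 0.902 at Pbx3 and 0 at Meis3 and Pbx2, against 0.910. In the Meis3 window of 31.4 kb, a density of 3.18 stood for 1 peak, as in SOX2 WT CHIR replicate 1. Among the regions found in at least 3 libraries, 19 of 35 for SOX2 and 14 of 23 for β-catenin were intronic. Within 1000 bp of the start of their gene lay 3 and 2. The same shares over all regions are not given here, so these counts only describe position.

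Overlap between the factors was partial. With a region kept where 2 of 3 libraries had it, 3 of 9 SOX2 regions in WT CHIR, 6 of 15 in CdxKO and 6 of 13 in T/BraKO overlapped a β-catenin region by more than 10% of the shorter one. At Meis3 there was 1 such region in WT, none in CdxKO and 1 in T/BraKO. The share over all SOX2 regions is not given here, so nothing particular to the 5 genes or to a genotype is read from these counts. TCF/LEF letters stood within 100 bp of the summit in 6 of 23 β-catenin regions of the 5 genes, against 40.9% of all β-catenin regions. CDX letters stood in 5 of 23, against 12.7%. For SOX2 regions, the SOX letters CCATTGT or CCTTTGT stood in 8 of 35, against 30.5%, and CDX letters in 11 of 35, against 10.6%.

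Between WT cells with and without CHIR, the share of SOX2 regions seen in noCHIR alone was close to that over all regions. Of 22 SOX2 regions found in at least 3 of the 6 WT libraries, 5 were among the 20000 best in 3 of 3 noCHIR and 0 of 3 CHIR libraries, where 25.7% of all such regions were. The opposite pattern was seen in 0 of 22, with a background of 0.966%. The 5 were the Meis1 regions at 45.4, 11.2 and 3.82 kb from the start, the Pbx3 region at 9.20 kb and a Meis2 region 5.62 kb downstream of the start (chr2:116059769-116060442). The last ranked 3107, 9562 and 1358 without CHIR and 306951, 46715 and 65032 with it. By gene, Meis2 was wholly higher without CHIR and Meis3 wholly higher with it, and Meis1, Pbx2 and Pbx3 overlapped.

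**Figure D4:**
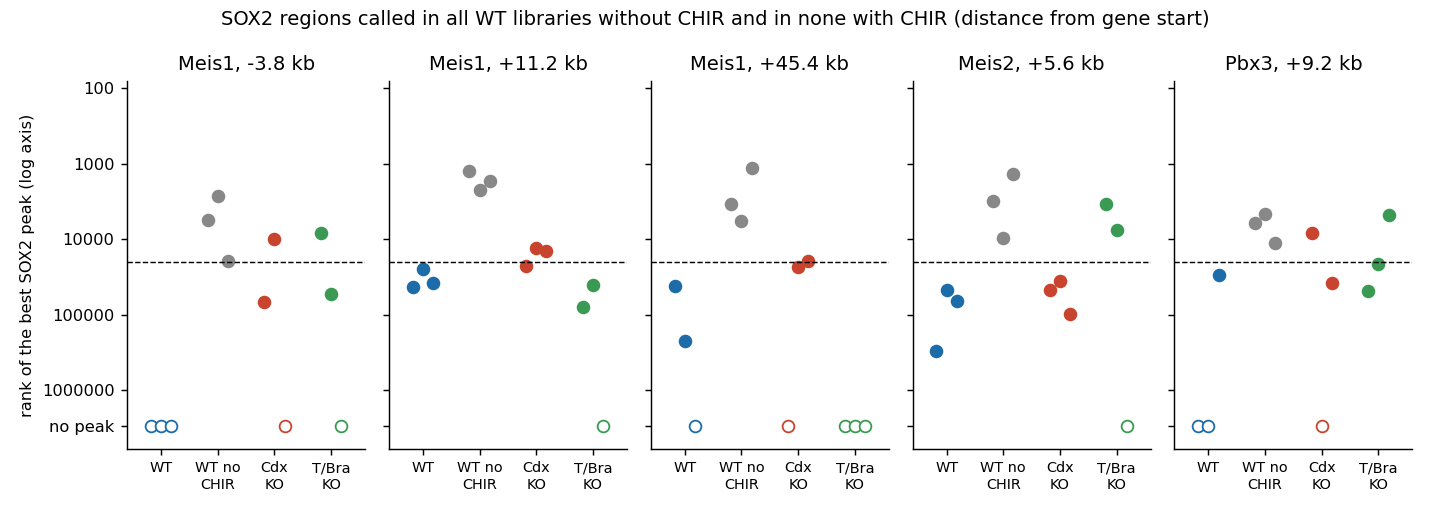
Rank of SOX2 at the 5 regions that were among the 20000 best in 3 of 3 noCHIR and 0 of 3 CHIR libraries, on a log axis with the best ranks at the top. Points are libraries of WT, WT without CHIR, CdxKO and T/BraKO, open points are libraries with no peak, and the dashed line is rank 20000. All noCHIR points lie inside that limit and all WT CHIR points outside it, which is how the regions were picked, and the mutants lie on both sides.

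Across the 35 pairs of a gene and a comparison, 7 had groups that did not overlap, 2 higher and 5 lower in WT CHIR. Over all genes with a peak in at least 3 libraries, 14.4% of such pairs did not overlap, and nothing particular to the members is read from their count. Pbx2 for LEF1 did not reach that number of libraries in either comparison. The pairs were Meis3 for β-catenin against CdxKO, which the choice had used (background 7.89% in that direction), and for SOX2 against noCHIR. Lower in WT CHIR were Meis2 for SOX2 against noCHIR, Pbx3 for SOX2 against CdxKO and against T/BraKO, Meis1 for β-catenin against CdxKO and Meis1 for LEF1 against T/BraKO. For β-catenin against T/BraKO no member was separated, where 8.47% and 8.79% of all genes were, and for LEF1 against CdxKO none was, where 5% and 5.26% were. When the groups of a factor were put in order of their mean score, neighbours in the order overlapped for every gene and factor except β-catenin at Meis3 between WT and CdxKO.

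Among the separately merged regions, 3 of 16 β-catenin regions of the members were found in 3 of 3 WT and 0 of 3 CdxKO libraries (background 3.57%), and these were both Meis3 regions and the Meis2 region at 56.6 kb. The Meis3 regions belong to the contrast that led to the choice of the genes, so nothing is read from this count. None was found in CdxKO alone (background 2.27%). Against T/BraKO, 1 of 20 was found in WT alone (background 3.46%), the same Meis2 region, and 1 in T/BraKO alone (background 4.65%), the Meis1 region at 1.92 kb. For SOX2, none of 13 or 14 regions was separated between WT CHIR and CdxKO (background 0.518% and 8.39%) or T/BraKO (0.415% and 6.67%). For LEF1 a single member region could be compared, and it was separated neither from CdxKO (background 1.69% in WT alone and 4.8% in CdxKO alone) nor from T/BraKO (6.3% and 1.72%).

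With all 9 libraries of a factor in 1 test, CdxKO or T/BraKO against the other 6, none of 28 pairs of a gene and a contrast had an exact permutation p under 0.05. The lowest exact p was 0.0714, and the 26 pairs with a peak in at least 3 libraries had Benjamini-Hochberg adjusted p-values over all genes of 0.685 to 1. Over all genes, the unadjusted limit was passed downwards and upwards by 1.05% and 3.29% for SOX2 in CdxKO and by 0.88% and 2.19% in T/BraKO. For β-catenin these shares were 3.64% and 3.51% in CdxKO and 3.59% and 5.14% in T/BraKO, and for LEF1 0.59% and 2.6%, and 0.812% and 2.76%. Ranked by fold enrichment, 2 pairs had an exact permutation p under 0.05. Meis3 for β-catenin was left out of these tests.

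**Figure D5:**
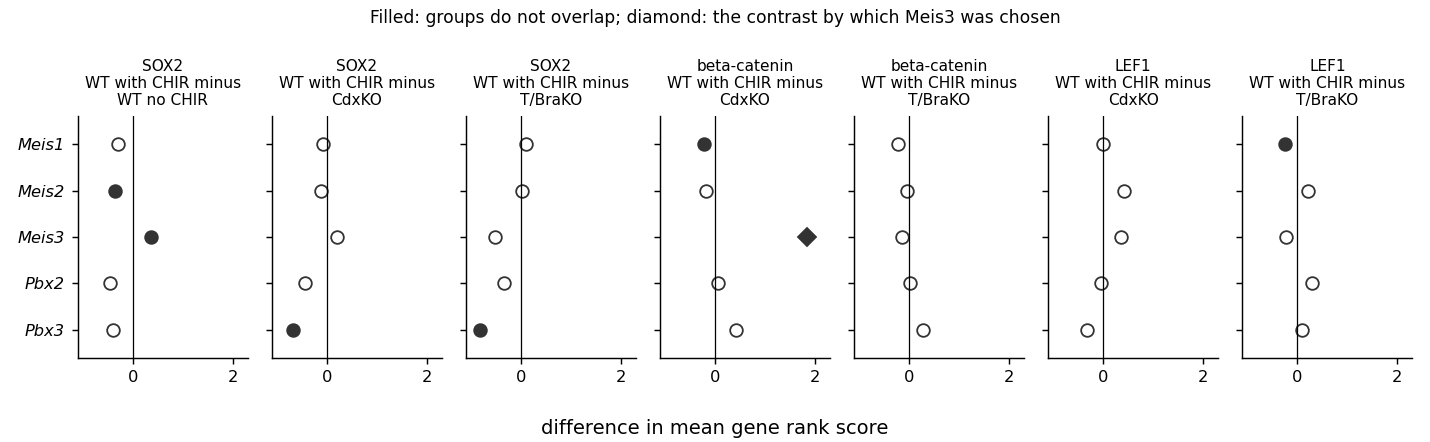
Mean gene rank score of WT CHIR minus that of the group it is compared with (horizontal axis) for each of the 5 genes, with 1 panel for each comparison, filled where the groups did not overlap. The diamond marks the contrast that led to the choice of Meis3. The difference at Meis3 for β-catenin against CdxKO, 1.84, lies far to the right, and Pbx3 for SOX2 against T/BraKO, at −0.82, far to the left.

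Related TALE homeobox genes, 10 of the Irx, Tgif and Pknox families, were separated in 5 of 70 pairs of a gene and a comparison. Of these, 3 were higher and 2 lower in WT CHIR. The share over all genes, 14.4%, counts only pairs with a peak in at least 3 libraries. Some of the 70 pairs had fewer, so the shares are not on a like basis. Irx2, an Iroquois gene, scored 0.710 for SOX2 in WT CHIR, 0.188 in noCHIR and 0.145 in CdxKO. For LEF1 it scored 0.331 in WT and 0.768 in CdxKO. Pknox1 scored 0.520 for LEF1 in WT and 0 in T/BraKO, and Tgif2 0.10 and 0.374. None of the 5 pairs was for β-catenin.

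The genes whose mean rank scores over the 10 groups ran most like those of a member were found by Pearson's r, as a description, since group means share libraries and list depth. They were AW551984 (r = 0.978), Spink14 (0.964) and Ubl4b (0.957) for Meis3, and Ascc2 (0.946), L1cam (0.930) and Dmrt2 (0.918) for Meis2. For Meis1 they were Iapp (0.928), Otud5 (0.924) and Tbc1d16 (0.919). For Pbx2 they were Ttc39c (0.995), Cabyr (0.990) and Dtx4 (0.986), and for Pbx3 they included Ppp1r12c (0.921) and Lrp10 (0.914). Ttc39c and Cabyr both lie on chromosome 18 and had the same highest group mean, 1.0075. Whether their windows hold the same peaks was not tested, so they may not be separate matches.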

How the data were processed

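The 30 immunoprecipitated libraries were used as deposited peak lists. According to the study's methods, the authors ran nf-core/chipseq, which trimmed single-end reads with Trim Galore, aligned them to mm10 with BWA, filtered them with SAMtools, BEDTools, BamTools and picard, and called narrow peaks in each library with MACS2. The control input of each library is not given in the sources used here. In each list, deposited columns hold the fold enrichment at the summit as a ratio to the local background, its −log10 p, its −log10 q, the summit position, and a score, 10 times −log10 q without decimals, which was not used. Read counts were not used here, so read depth is unknown, the study's DESeq2 test on counts could not be repeated, and no counting interval is given.

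Peaks were ordered within a library by −log10 q, and ties by −log10 p, fold enrichment and position. Genes were those of GENCODE M21 (GRCm38), with a window of 10 kb on each side. The rank score was log10 of 20000 over the best rank. Regions were merged peaks of the 20000 best lists with 1 bp of overlap. Groups came from the labels. Groups were compared by two-sided exact permutation tests over libraries and by whether they overlapped, which is a description read against the share of all features, with Benjamini-Hochberg adjustment over all genes with a peak in at least 3 libraries. The 5 genes, the related TALE genes and the tests were chosen with earlier results of these data known. The named regions were, at each gene, those with the highest mean score of a factor and those found in 3 of 3 libraries of 1 group and 0 of 3 of another; the named similar genes were among the 3 with the highest r, of which 1 is not reported here. The script was tested on simulated intervals with ranks and on simulated rank scores, without ties or differences in list length. Python 3.11.15, numpy 2.4.6, pandas 2.3.3, scipy 1.17.1, matplotlib 3.10.9 and samtools 1.23.1 were used.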

Additional observations from a re-analysis of the deposited data

How the results depend on the processing

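At the Meis3 upstream region, the SOX2 difference of CdxKO was −0.63 (exact permutation p = 0.0595) and −1.11 on full lists (exact p = 0.0238), and −0.75 to −0.54 with 1 library left out, with exact p of 0.0357 without WT replicate 1, WT replicate 2 or T/BraKO replicate 2. The SOX2 difference of T/BraKO, 0.70, was 0.24 with the 5000 best peaks (exact p = 0.0833) and 0.94 on full lists (exact p = 0.0595), and 0.60 to 0.87 with 1 library left out. Left-out libraries moved the LEF1 difference of CdxKO between −0.57 and −0.20 and that of T/BraKO between −0.17, without T/BraKO replicate 1, and 0.75. SOX2 in WT CHIR against noCHIR ranged from 0.07, without WT CHIR replicate 3, to 0.54. The 7 separated pairs became 4 without the extension of genes. They became 16 when only same-numbered replicates had to differ in the same direction (the replicate block), a looser condition that every separated pair meets. With 1 library left out they were 7 to 10, a count that cannot fall when a library is dropped. Members with p under 0.05 went from 0 to 2 when peaks were ranked by fold enrichment, to 1 with windows of 50 kb, and 0 to 1 with 1 library left out. The 10 regions found in 3 of 3 and 0 of 3 libraries became 5 with the 5000 best, 21 on full lists and 6 without the extension. With 1 library left out they were 10 to 21, 21 without SOX2 WT CHIR replicate 3, and this count cannot fall either. The causes were not tested. Meis2 and Pbx3 for SOX2 kept their separation under all 8 alternatives for ranking and windows. Meis3 for SOX2 lost it under 6, among them counting tied peaks at the last rank (an alternative chosen after seeing the data). Meis1 for LEF1 lost its separation when ranked by fold enrichment, without the extension and with windows of 50 kb. Meis1 for β-catenin lost it with windows of 50 kb, and Meis3 for β-catenin without the extension. Replicate numbers did not pair libraries (0 of 21 pairs correlated above 0.1). The block changed no call of the 5 region tests. Peak lists without read depth limit all of this to rank.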
